A study of Mus musculus with 31 samples.

Results

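The genes described here are 10 genes of mitosis, Mki67, Top2a, Birc5, Ccna2, Ccnb2, Cdk1, Plk1, Aurka, Aurkb and Bub1, of 18820 genes that the arrays measured with at least 1 single-symbol probe set. For each gene the probe set with the highest mean over all 31 arrays was taken. All 10 passed the filter on dim signals, as did 12795 genes in all, and each member reached it on 31 of 31 arrays. The samples were scrapings of the epithelial lining of the colon from male C57Bl/6J mice aged 13 weeks, individually housed. After 2 weeks on a palm oil-based diet, high in fat (HFD, 45% of energy) or low in fat (LFD, 10% of energy), each mouse was sedated with isoflurane and nitrous oxide and infused rectally once a day on 6 consecutive days. The infusion was 80 µL of isotonic saline at pH 6.5, with 100 mM sodium acetate, propionate or butyrate, or without any acid. Colons were removed 4 h after the last infusion. The groups were acetate, propionate, butyrate and saline on HFD, with 4 arrays each, and acetate, propionate, butyrate and saline on LFD, with 4 arrays each except acetate, which had 3. All mice, saline controls included, shared the sedation, the infusions and a period on chow before the diets. Per the labels 6 mice entered each group, but arrays are not tied to mice there, so p-values measure the spread between these samples.

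The lining of the colon renews itself continuously. Stem cells and their transit-amplifying daughters divide in the lower part of the crypts, and cells stop dividing as they move up towards the surface. Genes of mitosis are transcribed late in the cell cycle: their promoters are held silent by the DREAM complex in resting cells and are switched on by B-Myb and FoxM1 in dividing cells, largely through a sequence called the cell cycle genes homology region (CHR) and through CCAAT boxes, the sites of the factor NF-Y. In bulk scrapings, fewer dividing cells and less RNA per dividing cell cannot be told apart.

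The promoters of 8 of the 10 genes were in the RefSeq table used (GRCm38.p6, 250 bases before to 50 bases after the annotated start). Ccna2 and Aurkb had no window there. The stretches below are shown because they hold the motifs of 4 of the genes, with Birc5 as an example of a window without them. Whether the motifs bear on the levels was not tested. Each stretch is 150 bases long and reads 5′ to 3′ along the gene's own strand. Capitals mark CCAAT boxes (CCAAT, or ATTGG where the box lies on the opposite strand) and CHR letters (TTTGAA, or TTCAAA on the opposite strand). Ccnb2 lies on the minus strand at chr9:70421555-70421704, Cdk1 on the minus strand at chr10:69352913-69353062, Top2a on the minus strand at chr11:99024190-99024339, Mki67 on the minus strand at chr7:135716460-135716609 and Birc5 on the plus strand at chr11:117849087-117849236. The Mki67 stretch ends further upstream of the start site, so as to hold its motifs, and the others end at the base before it. The start site is the one annotated for the window. For Mki67 and Top2a it lies inside the gene spans given below, which end at 135716450 and 99024199.
Ccnb2: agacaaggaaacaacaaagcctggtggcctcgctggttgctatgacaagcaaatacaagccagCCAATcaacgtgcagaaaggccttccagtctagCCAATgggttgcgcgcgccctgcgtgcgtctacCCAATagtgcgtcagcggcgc
Cdk1: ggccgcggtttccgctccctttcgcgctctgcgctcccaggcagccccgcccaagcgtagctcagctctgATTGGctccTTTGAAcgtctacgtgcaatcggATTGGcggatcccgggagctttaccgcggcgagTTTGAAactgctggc
Top2a: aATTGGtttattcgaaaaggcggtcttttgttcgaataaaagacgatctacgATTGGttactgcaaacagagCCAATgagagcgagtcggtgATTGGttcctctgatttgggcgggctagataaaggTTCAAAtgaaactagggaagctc
Mki67: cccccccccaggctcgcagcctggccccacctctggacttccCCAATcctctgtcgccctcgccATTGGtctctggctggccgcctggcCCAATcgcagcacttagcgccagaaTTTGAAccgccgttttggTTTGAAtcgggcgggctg
Birc5: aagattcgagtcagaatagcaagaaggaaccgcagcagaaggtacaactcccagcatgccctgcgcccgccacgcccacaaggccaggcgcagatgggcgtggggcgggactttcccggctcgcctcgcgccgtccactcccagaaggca
The whole Ccnb2 window held 3 CCAAT boxes, and each of the 2 gaps between them measured 33 bases from first letter to first letter. Its CHR letters lay outside the printed stretch, 167 bases before and 5 bases after the start. Cdk1 had 3 CCAAT boxes and 2 CHR matches, the nearer one 15 bases before the start. Top2a had 6 CCAAT boxes, the most of the 8 windows, with 2 CHR matches, and Mki67 had 3 CCAAT boxes with 2 CHR matches. Birc5 had neither motif in its window, and held only the variant TTTAAA, 220 bases before the start.

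**Figure D1:**
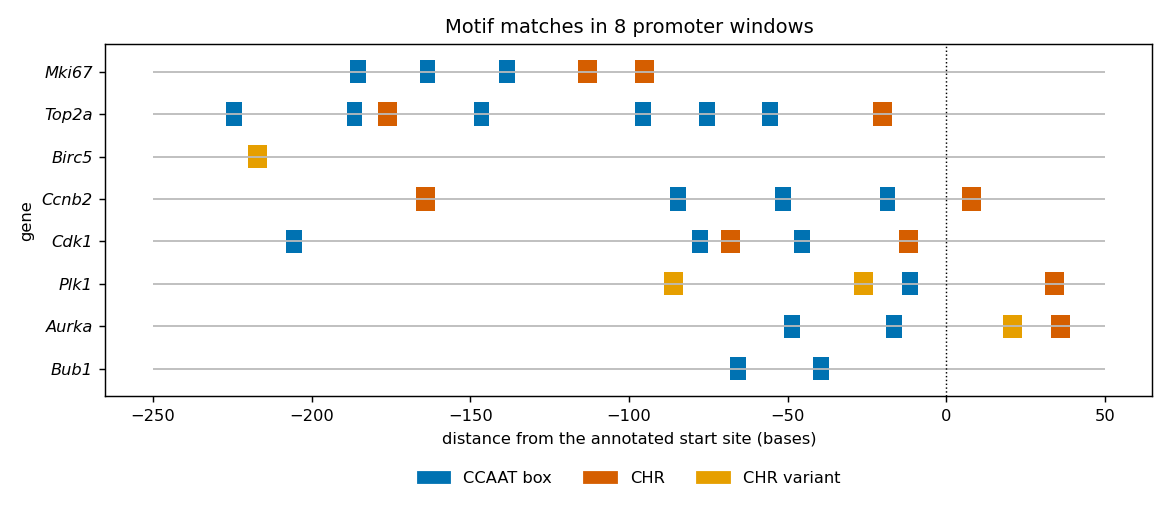
Matches to 3 short motifs in the promoter windows of 8 mitosis genes, drawn by distance in bases from the annotated start site (dotted line at 0). Of the 8 genes 7 carry CCAAT boxes (blue), most of them within 100 bases before the start, and Birc5 carries only the CHR variant (yellow).

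Over the windows, CCAAT occurred on either strand in 7 of 8 members' promoters, against 37.4% of all 32851 mouse promoters of the same length. TTTGAA occurred in 6 of 8, against 17.9% of all promoters, and both motifs occurred together in 6 of 8, against 6.95%. TTTAAA occurred in 3 of 8, against 13.2%. The letters of the 3 motifs do not overlap one another. Bub1 had 2 CCAAT boxes, 68 and 42 bases before its start, and no TTTGAA or TTTAAA. Of 44 promoters of other mitosis genes (a list of 49 genes that are no members), 30 held CCAAT, 28 held TTTGAA and 24 held both. Of 28 promoters of DNA replication and S phase genes, 16 held CCAAT and 3 held TTTGAA. A match describes the letters in the window, not a binding site.

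The levels are log2 values made by RMA. A difference of 1 on this scale is a 2-fold change, and levels of different probe sets cannot be set against each other. Epithelial markers (8 genes) averaged 10.9 to 11.2 on every array. They are shared by small and large intestine and do not tell these apart. Several arrays stood apart in transcripts of other tissues. The small-intestinal list (14 genes) averaged 8.37 to 8.77 on 4 arrays (saline HFD 2, propionate LFD 2, saline LFD 2 and 3) and at most 7.08 on the rest. The smooth muscle list (10 genes) was high on saline HFD 1 and 2, with averages of 6.76 and 6.56, and reached 6.02 at most elsewhere. Of 21 markers of B cells, T cells and macrophages, 11 reached the filter on every array (Cd79b, Cd3e and Cd68 among them) and 4 on none (Cd4, Cd3d, Adgre1 and Mrc1). Within groups r between arrays was 0.987 to 0.994, and between groups it was 0.986 to 0.995. The number of arrays limits the precision of every value below.

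Neither diet nor any acid gave a difference in these genes that passed the test. In 20 comparisons, 0 of 200 tests of a member passed an adjusted p of 0.05 (limma, Benjamini-Hochberg over all 12795 genes). An unadjusted p under 0.05 was seen in 14 of the 200 tests. The share of all genes with one ran from 0.844% to 24.4%, depending on the comparison. The lowest adjusted p was 0.0558, for Bub1 in HFD over LFD under propionate. In 195 of the 200 tests the 95% interval of the difference, taken gene by gene, left out a 2-fold change in either direction. The 5 that did not were all of Bub1. Members moved together from array to array within groups, with a median r of 0.82 over the 36 pairs without Birc5. Counts of members on one side of 0, given below, are therefore not counts of separate readings.

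Mki67 (chromosome 7, 135689784 to 135716450, GRCm38.p6) encodes Ki-67, which coats the chromosomes of dividing cells and is the standard stain for proliferation. Its level was 8.37 ± 0.26 in acetate HFD, 8.22 ± 0.15 in propionate HFD, 8.53 ± 0.22 in butyrate HFD and 8.45 ± 0.19 in saline HFD colons (mean ± SD, n = 4 each). In LFD colons it was 8.19 ± 0.30 under acetate (n = 3), 8.54 ± 0.25 under propionate, 8.57 ± 0.29 under butyrate and 8.52 ± 0.29 under saline (n = 4 each). The span of 0.38 between the highest and the lowest group mean compared with an SD within groups of 0.25, and every pair of neighbouring groups overlapped. Top2a (chromosome 11, 98992947 to 99024199) encodes topoisomerase II alpha, which untangles DNA before chromosomes part. Its highest mean was 7.83 ± 0.20 in propionate LFD colons and its lowest 7.48 ± 0.29 in propionate HFD colons, a span of 0.34. Top2a had 2 further probe sets, with means of 3.08 and 2.25, which reached the filter on 0 arrays and give no second reading.

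Ccna2 (chromosome 3, 36564865 to 36573038) encodes cyclin A2, which acts in S phase and on entry to mitosis, and Ccnb2 (chromosome 9, 70407689 to 70421554) encodes cyclin B2. Both are partners of the kinase that Cdk1 encodes (chromosome 10, 69335146 to 69352912), which drives cells into mitosis. All 3 had their highest mean in butyrate LFD and their lowest in acetate LFD colons. Ccna2 averaged 8.31 ± 0.31 in butyrate LFD (n = 4) and 7.85 ± 0.35 in acetate LFD colons (n = 3). Ccnb2 averaged 8.65 ± 0.24 and Cdk1 7.87 ± 0.28 in butyrate LFD, against 8.25 ± 0.33 and 7.59 ± 0.26 in acetate LFD colons. The arrays of the 2 groups overlapped for each of the 3 genes.

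Plk1 (chromosome 7, 122159435 to 122169884) encodes polo-like kinase 1, which is needed for spindle assembly and cell division. Aurka (chromosome 2, 172356190 to 172370886) encodes Aurora A, a kinase of the spindle poles, and Aurkb (chromosome 11, 69045624 to 69051664) encodes Aurora B, the kinase of the chromosomal passenger complex. Their group means spanned 0.33, 0.29 and 0.36 on the log2 scale, in that order, against an SD within groups of 0.24, 0.22 and 0.24. Aurkb was lowest in propionate HFD colons, with 7.52, 7.62, 7.78 and 7.39, against 7.78, 7.87, 7.79 and 8.14 in saline HFD colons. These 2 groups did not overlap, as was the case in the same direction for 2.96% of all genes, and the difference was -0.32 ± 0.16 (SE, limma adjusted p = 0.434).

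Bub1 (chromosome 2, 127800197 to 127831859) encodes a kinase of the spindle checkpoint, which holds cells in mitosis until all chromosomes are attached. It varied more than any other member, with an SD within groups of 0.35 and a span of 0.72 between propionate LFD (6.53 ± 0.27) and acetate LFD (5.81 ± 0.49). Birc5 (chromosome 11, 117849237 to 117855743) encodes survivin, a subunit of the chromosomal passenger complex that is also known as an inhibitor of cell death. The order of the groups differed from gene to gene, and that of Birc5 differed at the top. Its highest mean was in saline LFD (5.88 ± 0.26) and its next in propionate HFD colons (5.86 ± 0.31), a group in which 8 of the other members had their lowest or next to lowest mean. Its lowest mean was in acetate LFD colons (5.40 ± 0.11).

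**Figure D2:**
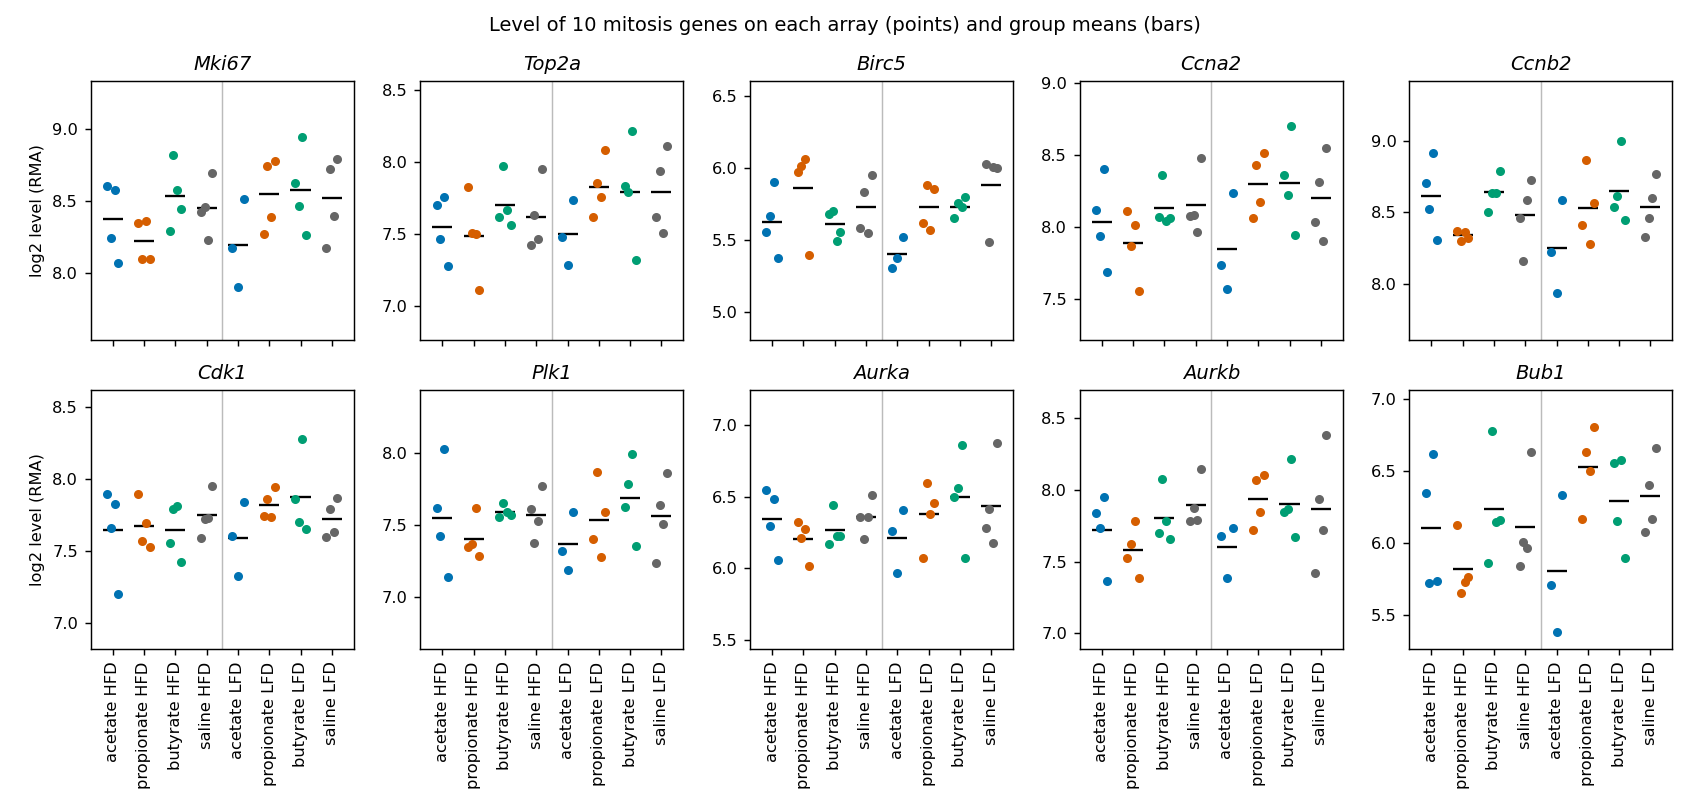
Log2 level (RMA) of each of the 10 genes on every array (points), with group means (bars), for the 4 infusions on HFD (left of the grey line) and on LFD (right). Within each gene the 8 groups overlap widely, apart from a few pairs such as propionate HFD and propionate LFD for Bub1.

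High-fat feeding over low-fat feeding, averaged over the 4 infusions, left the members close to 0. Mki67 ran from 8.07 to 8.82 with a median of 8.39 on 16 HFD arrays, and from 7.90 to 8.95 with a median of 8.47 on 15 LFD arrays. Bub1 ran from 5.65 to 6.78 with a median of 5.99 on HFD arrays, and from 5.38 to 6.81 with a median of 6.34 on LFD arrays. The ranges overlapped almost entirely. None of the 10 members passed the test, while 2.7% of all genes did (limma, adjusted p under 0.05), and 0 members had an unadjusted p under 0.05, against 21.7% of all genes. Of the members 2 lay above 0 and 8 below (47.6% of all genes lay below), with a median log2 difference of -0.07 (0.01 over all genes). The largest was that of Bub1, -0.17 with a 95% interval of -0.41 to 0.07 (limma adjusted p = 0.405). No interval reached past a 1.33-fold change.

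Genes of other phases lay to the same side. Among DNA replication and S phase genes, all 24 tested lay below 0 in HFD over LFD, with a median of -0.19, and 2 fell: Cdc6, a loader of the replicative helicase, by 0.33 ± 0.09 (limma adjusted p = 0.0474), and Mcm4, a subunit of that helicase, by 0.32 ± 0.09 (adjusted p = 0.0475). These 2 calls were close to the threshold: leaving out 1 array gave 0 calls for 20 of the 31 arrays and 7 at most, omitting the filter or the intensity trend gave 0, and array weights gave 15. Of 45 other mitosis genes, 36 lay below 0 and 0 passed. The stem and progenitor list had 10 of 11 genes above 0, with 0 passing.

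Diet had its widest reach under propionate, where 6.87% of all genes passed between propionate HFD and propionate LFD colons (limma, adjusted p under 0.05). Of the mitosis genes 0 of 10 passed, 9 lay below 0 (54.3% of all genes did) and Birc5 above, with a median of -0.26 (-0.02 over all genes). Bub1 measured 6.12, 5.65, 5.73 and 5.77 in propionate HFD colons, against 6.17, 6.63, 6.50 and 6.81 in propionate LFD colons. The groups did not overlap, as was the case in this direction for 8.77% of all genes, and the lowest LFD array was close to the highest HFD array. The difference was -0.71 ± 0.23, with an interval of -1.18 to -0.24 (limma adjusted p = 0.0558). It passed, with an adjusted p of 0.0236, when the spread was taken from these 2 groups alone, and missed, with 0.125, when the 4 arrays rich in small-intestinal transcripts were left out.

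Ccna2 measured 8.11, 7.87, 8.02 and 7.56 in propionate HFD, against 8.07, 8.43, 8.17 and 8.51 in propionate LFD colons. All but the highest of its HFD arrays lay below every LFD array. Its difference was -0.41 ± 0.17 and that of Aurkb -0.36 ± 0.16, with adjusted p-values of 0.14 and 0.158 (limma). Including Bub1, 3 of 10 members had an unadjusted p under 0.05, against 24.4% of all genes. Mki67 and Top2a differed by -0.32 and -0.34, and Ccnb2, Cdk1, Plk1 and Aurka by -0.19, -0.15, -0.13 and -0.17. Birc5 differed by 0.13, with an interval of -0.15 to 0.41.

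The genes that copy DNA, which act before mitosis in the cycle, made up more of the calls in that comparison. Of 24 replication and S phase genes 16 fell in propionate HFD against propionate LFD colons, 24 lay below 0 and the median was -0.60. The helicase subunits Mcm7, Mcm5 and Mcm4 fell by 0.60 ± 0.13, 0.76 ± 0.18 and 0.68 ± 0.17 (limma adjusted p = 0.0156, 0.0194 and 0.023). Mcm10, which helps fire origins, Chaf1b, a subunit of the complex that loads histones behind the fork, and Lig1, the ligase that joins Okazaki fragments, fell by 0.56 ± 0.13, 0.74 ± 0.19 and 0.45 ± 0.11 (adjusted p = 0.0179, 0.0247 and 0.0257). Whether this list moved more than the mitosis genes was not tested. These calls did not hold without single arrays: 0 of the 24 passed when propionate HFD 2, propionate HFD 3, propionate LFD 3 or propionate LFD 4 was left out, and 3 without propionate HFD 4, while the median stayed between -0.71 and -0.47. The number of all genes that passed, 879, was 11 without propionate HFD 2.

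Among 45 other mitosis genes 3 fell under the same contrast: Ncaph, a condensin subunit, by 0.61 ± 0.17 (limma adjusted p = 0.0329), Melk, a kinase of dividing cells, by 0.52 ± 0.15 (adjusted p = 0.0391), and Mad2l1, the spindle checkpoint protein Mad2, by 0.55 ± 0.17 (adjusted p = 0.0465). The 3 of 45 stand beside 6.87% of all genes that passed. Of the 45, 40 lay below 0 with a median of -0.17, and 0 passed without propionate HFD 2, HFD 3, HFD 4, LFD 3 or LFD 4, against 9 lower and 1 higher without propionate HFD 1. Array weights gave 12 lower and 1 higher. Of 17 regulators of G1 phase, 2 fell: Cdk2 by 0.41 ± 0.09 (adjusted p = 0.0162) and Cdk4 by 0.25 ± 0.07 (adjusted p = 0.0421), kinases that drive cells into S phase. Of 14 genes of the DREAM, B-Myb and FoxM1 machinery, Nfyc, a subunit of NF-Y, fell by 0.24 ± 0.07 (adjusted p = 0.0409) and Tfdp1, the partner of E2F factors, by 0.40 ± 0.12 (adjusted p = 0.0495). Myc, a driver of growth kept in the stem and progenitor list, rose by 0.49 ± 0.15 (adjusted p = 0.0435). The calls of the G1 list, the DREAM list and Myc were lost as well when propionate HFD 2, HFD 3, LFD 3 or LFD 4 was left out. Those of the DREAM list were also lost without propionate HFD 1, LFD 1 or LFD 2, and that of Myc without propionate LFD 1 or LFD 2.

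Other transcripts moved with this contrast. The mean of 55 small nucleolar RNAs, a set chosen after its values were seen, was 7.40 to 8.00 on the 4 propionate HFD arrays, against 6.78 to 7.07 on the 4 propionate LFD arrays. The small-intestinal list averaged 6.60 to 7.04 in propionate HFD, against 6.89 to 8.77 in propionate LFD colons, with 12 of its 14 genes below 0. The epithelial list differed little, with 10.9 to 11.1 in propionate HFD and 11.0 to 11.1 in propionate LFD colons. The part of these transcripts in the result was not tested.

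Under the other infusions the median difference between diets was nearer to 0, and its direction varied. HFD over LFD was above 0 for all 10 members under acetate (median 0.18), against 52.7% of all genes. It was below 0 for all 10 under butyrate (median -0.10), against 41% of all genes. Under saline it was below 0 for 7 of 10 (median -0.06), against 47.4% of all genes. In each of these, 0 genes of all passed (limma; 986, 469 and 932 had an unadjusted p under 0.05, in that order). Ccnb2 measured 8.71, 8.52, 8.92 and 8.31 in acetate HFD, against 8.22, 7.94 and 8.59 in acetate LFD colons, which overlapped, a difference of 0.36 ± 0.16 (limma adjusted p = 0.629). The median under acetate was 0.04 without acetate LFD 2 and 0.29 without acetate LFD 3, and that under butyrate was 0.01 without butyrate LFD 3. The difference of the propionate response between the diets, HFD minus LFD, was below 0 for 9 of 10 members with a median of -0.17. Of all genes 57.2% lay below 0 in it, and 0 genes passed (1643 had an unadjusted p under 0.05, 0 members among them).

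Acetate against saline on the low-fat diet also left the members on a single side of 0. All 10 members lay below 0 in acetate LFD against saline LFD colons (50.1% of all genes did), with a median of -0.29 (0.00 over all genes). The 10 are not separate readings, since members moved together within groups and all rest on the same acetate arrays. Birc5 measured 5.30, 5.37 and 5.52 under acetate, against 6.02, 5.48, 6.01 and 6.00 under saline. The saline arrays other than saline LFD 2 lay well above all acetate arrays, and saline LFD 2 lay among them. The difference was -0.48 ± 0.15, an unadjusted p of 0.00281 and an adjusted p of 1.00 (limma). In this comparison 0 genes passed the adjusted threshold (0% of those tested) and 193 of all genes (1.51%) had an unadjusted p under 0.05, with 2 of the 10 members among them.

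Bub1 measured 5.71, 5.38 and 6.34 in acetate LFD, against 6.07, 6.40, 6.17 and 6.66 in saline LFD colons, a difference of -0.52 ± 0.25 with an interval of -1.03 to -0.01. Ccna2 measured 7.74, 7.57 and 8.23 under acetate, against 8.04, 8.31, 7.91 and 8.55 under saline. For both genes the third acetate array lay among the saline arrays and the other two below all of them. The members' median was -0.44 without acetate LFD 3 and -0.17 without acetate LFD 2. Of 45 other mitosis genes 44 lay below 0, with a median of -0.18 and the smallest p for Nek2 at -0.45 ± 0.16 (adjusted p = 1.00). Replication genes had 19 of 24 below 0 with a median of -0.07.

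In the same comparison all 10 smooth muscle genes and all 14 small-intestinal genes lay below 0, with medians of -0.28 and -0.64. The small-intestinal list averaged 6.87 to 6.97 in acetate LFD and 6.81 to 8.58 in saline LFD colons, and the smooth muscle list 5.29 to 5.50 in acetate LFD and 5.29 to 6.02 in saline LFD colons. With the 4 arrays rich in small-intestinal transcripts left out the members' median was -0.33. On HFD, acetate against saline gave a median of -0.07 with 9 of 10 below 0 (49.3% of all genes). Without acetate HFD 4 that median was 0.03. The difference of the acetate response between the diets, HFD minus LFD, was above 0 for all 10 genes with a median of 0.23. Of all genes 50.5% lay above 0 in it, and 0 passed (limma, 108 of all genes with an unadjusted p under 0.05, 0 of the 10 members).

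**Figure D3:**
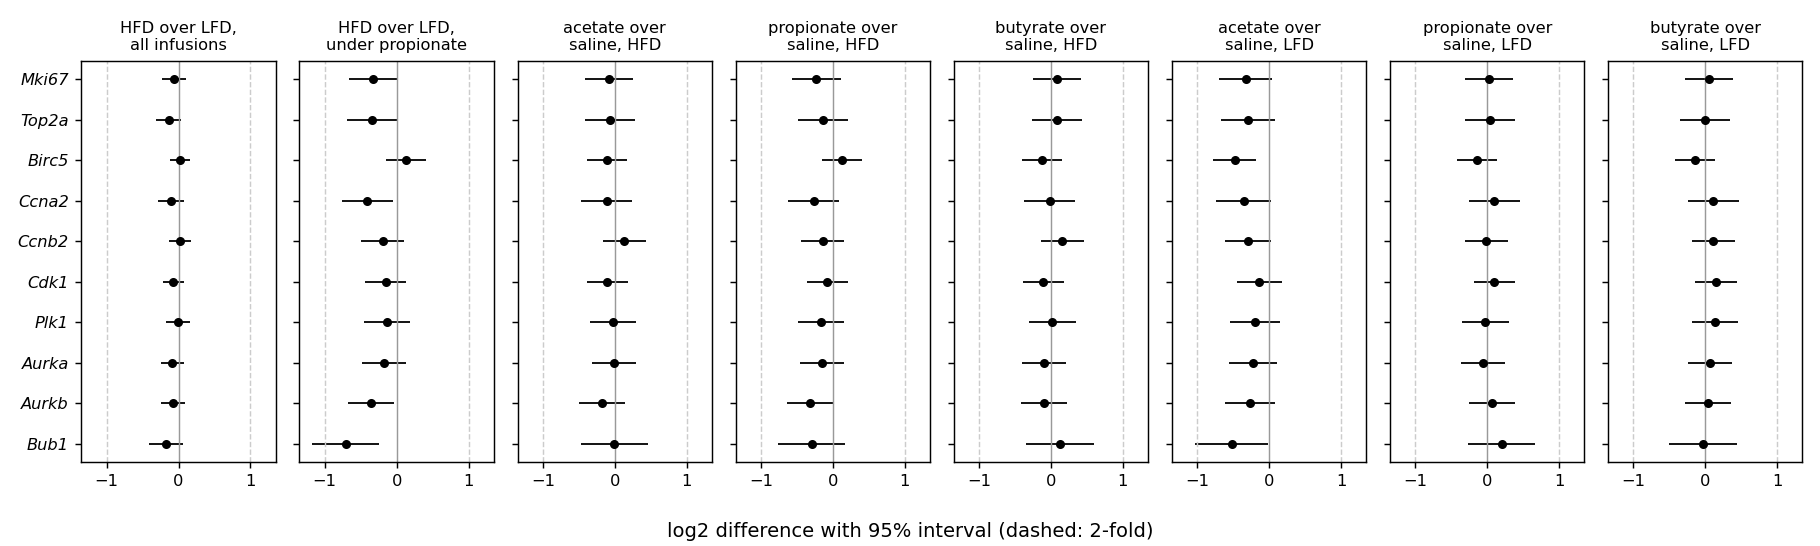
Log2 difference of each gene with its 95% interval (moderated fit, per gene) in HFD over LFD and in each acid over saline; dashed lines mark a 2-fold change. Most intervals span 0 and stay within the dashed lines, and the points lie together to the left of 0 for acetate over saline on LFD and, apart from Birc5, for HFD over LFD under propionate.

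No member passed for the other 2 acids. Butyrate is taken up as fuel by colonocytes and is known to slow the growth of cultured colon cancer cells. Butyrate against saline gave a median of 0.00 on HFD, with 5 members above 0 and 5 below, and of 0.06 on LFD, with 7 above and 3 below. Its intervals ran from -0.41 to 0.59 over the members on HFD and from -0.50 to 0.46 on LFD. Propionate against saline gave a median of -0.16 on HFD, with 9 of 10 below 0 (55.6% of all genes). On LFD its median was 0.03, with 6 above 0 (56.1% of all genes). In these 4 comparisons 0 genes of all passed (limma; 513, 358, 1497 and 487 genes had an unadjusted p under 0.05, in the order given), with 0 members at an unadjusted p under 0.05.

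The 3 acids are unbranched and differ in chain length, acetate being the shortest and butyrate the longest, and were infused at the same dose. Over the 6 comparisons between them, 3 on each diet, 0 of 60 member tests passed. On LFD, propionate over acetate and butyrate over acetate were above 0 for all 10 members, each with a median of 0.33. Of all genes 55.8% and 50.7% lay above 0, in that order, and both comparisons share the 3 acetate arrays. Of the 10 members 3 and 4 had an unadjusted p under 0.05 (limma), against 3.7% and 1.4% of all genes. The same 3 arrays enter acetate over saline on LFD (2 members, against 1.51% of all genes) and diet under acetate (1 member, against 7.71%). Birc5 measured 5.61, 5.88, 5.57 and 5.86 under propionate, 5.65, 5.76, 5.73 and 5.79 under butyrate, and 5.30, 5.37 and 5.52 under acetate. It did not overlap with acetate in either comparison, as was the case in that direction for 2.62% of all genes for propionate and 1.16% for butyrate (limma adjusted p = 1.00 for both). Butyrate over propionate on LFD had a median of 0.02, with intervals from -0.70 to 0.48.

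On HFD, butyrate over propionate was above 0 for 8 of 10 members (60.2% of all genes), with a median of 0.22. Ccnb2 measured 8.50, 8.64, 8.64 and 8.79 in butyrate HFD, against 8.37, 8.30, 8.36 and 8.32 in propionate HFD colons. The 2 groups did not overlap, as in this direction for 5.17% of all genes. The difference was 0.30 ± 0.15 (limma adjusted p = 0.285), and 0 of 10 members passed, against 0.0625% of all genes. Propionate over acetate and butyrate over acetate on HFD had medians of -0.14 and 0.06.

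Within groups, 9 of the 10 genes moved together from array to array. Each level was set against its group mean, and the deviations of 2 genes were correlated over the 31 arrays. Over the 36 pairs without Birc5 the median r was 0.82, from 0.59 (Top2a and Ccnb2) to 0.94 (Top2a and Ccna2), with a median rho of 0.81. Over the 9 pairs with Birc5 the median r was 0.34, from 0.28 to 0.49. The arrays share their normalization, and deviations within a group sum to 0, so these values are given as a description. Without butyrate LFD 3 and saline LFD 4, the 2 arrays farthest from the median, the medians were 0.79 and 0.35.

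**Figure D4:**
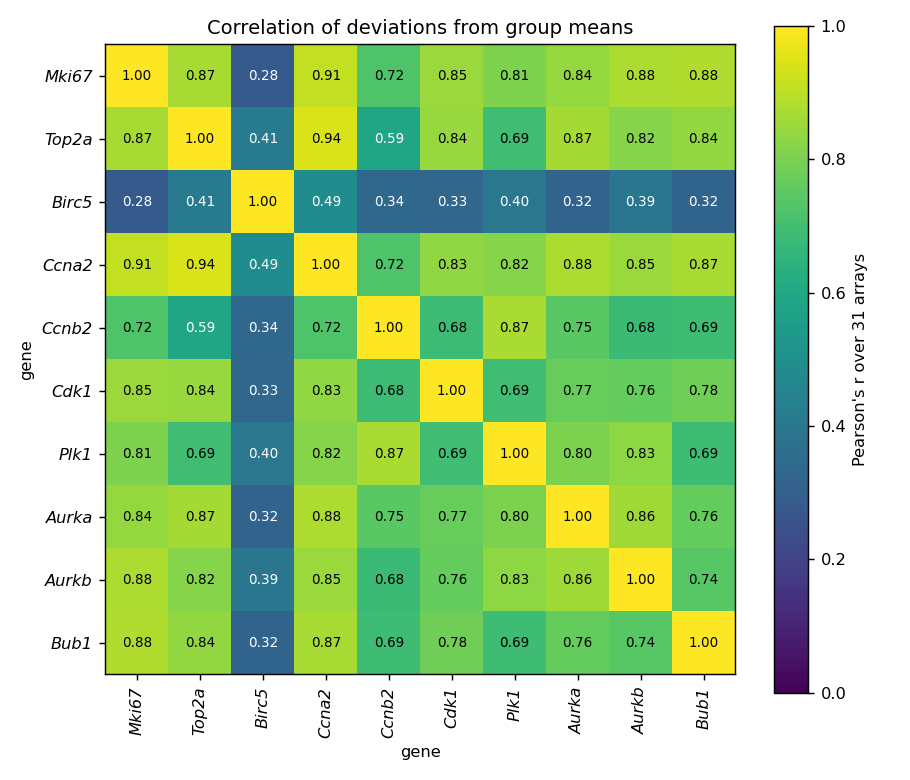
Pearson's r between the deviations of 2 genes from their group means over 31 arrays, for each pair of the 10 genes (colour and printed value). The row and column of Birc5 stand out with values of 0.28 to 0.49, while the other pairs lie between 0.59 and 0.94.

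On 19 of 31 arrays at least 9 of the 10 genes lay on the same side of their group means. Butyrate LFD 3 had a mean level over the members of 7.85, the highest of all arrays, and acetate LFD 2 one of 6.93, the lowest. Replicates within a group differed by as much as the groups did: the butyrate LFD arrays averaged 7.54, 7.49, 7.85 and 7.24, and the acetate HFD arrays 7.49, 7.27, 7.65 and 7.02. The highest group mean was 7.53 ± 0.25 in butyrate LFD (n = 4) and the lowest 7.18 ± 0.26 in acetate LFD (n = 3). Birc5 lay on the opposite side from the mean of the 9 others on 12 of 31 arrays. On 15 arrays all 9 others lay on the same side, and on 5 of these Birc5 lay on the other. In saline LFD 2 Birc5 was 0.40 below its group mean while the 9 others averaged 0.07 above theirs.

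**Figure D5:**
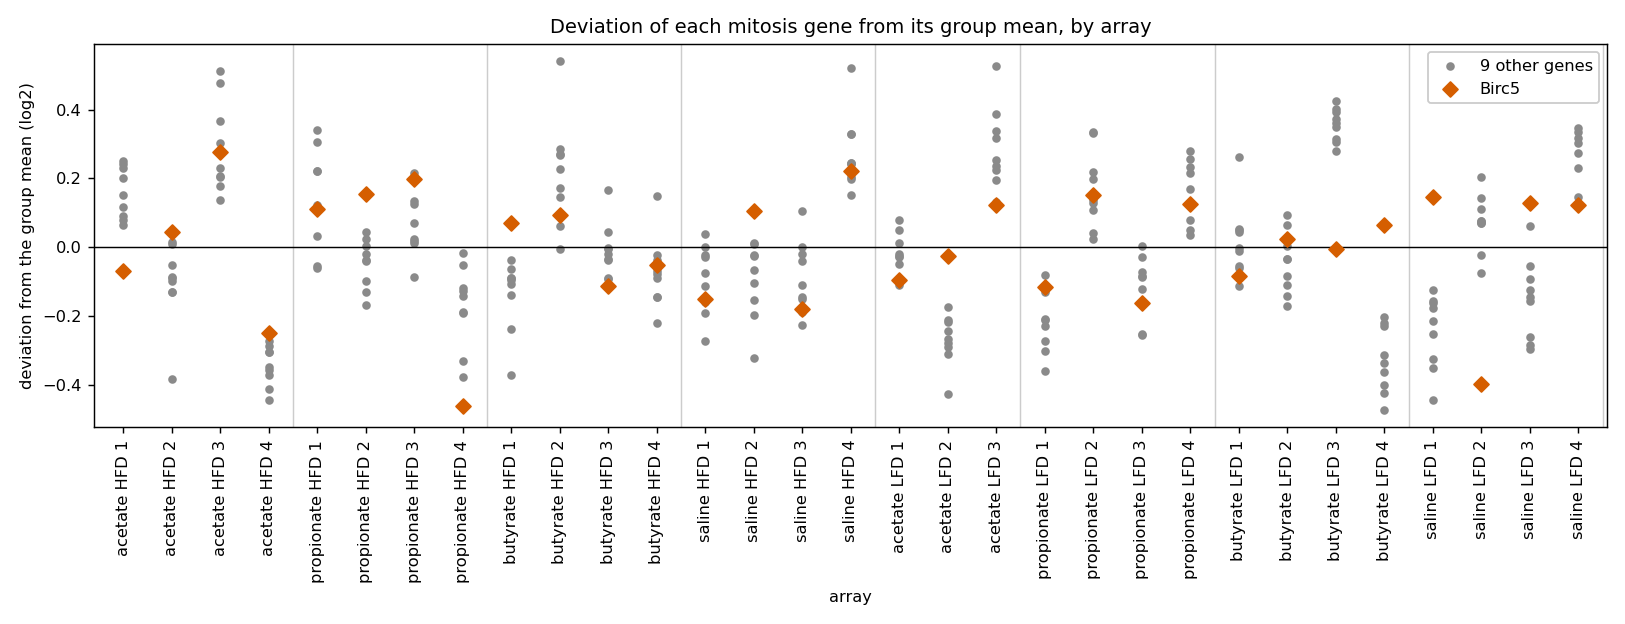
Deviation of each gene from its group mean (log2) on each of the 31 arrays, with Birc5 as orange diamonds and the 9 other genes as grey points. The grey points cluster on the same side of 0 on arrays such as acetate HFD 4 and butyrate LFD 3, and Birc5 lies apart from them on saline LFD 1, 2 and 3 and butyrate LFD 3 and 4.

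The 9 genes differed in how closely they followed the genes of DNA replication. Plk1 and Ccnb2, which peak late in the cycle, were close to each other (r = 0.87), and so were Top2a and Ccna2, which are expressed from S phase on. With the mean of the 24 replication genes, Top2a, Ccna2 and Bub1 correlated at 0.74, 0.72 and 0.68, and Plk1 and Ccnb2 at 0.28 and 0.15. Mki67, Cdk1, Aurkb and Aurka lay between these, at 0.58, 0.54, 0.54 and 0.51. With the mean of the 45 other mitosis genes, Top2a, Ccna2, Bub1, Plk1 and Ccnb2 correlated at 0.91, 0.96, 0.88, 0.81 and 0.74. For Mki67, Cdk1, Aurkb and Aurka that value was 0.93, 0.88, 0.84 and 0.87. Birc5 correlated at 0.35 with the replication list and at 0.48 with the mitosis list.

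Outside the list, the genes whose deviations were most like the members' mean were Anln (r = 0.91), Kif22 (0.90), Ccnf (0.90), Racgap1 (0.89), Kif20b (0.89), Cenpe (0.87), Kif11 (0.87), Cdca2 (0.86), Iqgap3 (0.86) and Cip2a (0.86). Anillin, RacGAP1 and the kinesins Kif20b, Kif22, Cenp-E and Kif11 are known parts of the spindle, the chromosomes or the cleavage furrow, and Ccnf encodes cyclin F. Over all 12785 genes that are no members, the middle 90% of r lay between -0.37 and 0.43. Of 45 other mitosis genes 40 lay above 0.43, as did 19 of 24 replication genes. The most opposite gene was Gbp8, a guanylate-binding protein, at -0.80.

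Birc5 had other neighbours. The genes most like it were Psmb6 (r = 0.79), a proteasome subunit, Dpp3 (0.78), a peptidase, and Mrps16 (0.77), a mitochondrial ribosomal protein, and App, the amyloid precursor protein, was the most opposite at -0.82. None of its 10 nearest genes was in the mitosis or replication lists, against 3 to 7 of the 10 nearest to each other member. Its probe set averaged 5.70, and it was the only member that a stricter filter, a mean of 6, dropped. Its SD within groups was 0.20, in the 78.5th percentile of all genes, against the 81.9th to 96.5th for the others.

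Markers of the other cell types of the colon correlated with the mitosis genes at values between -0.39 and 0.12. The members' mean correlated with the list of goblet cells (7 genes) at 0.07, of surface colonocytes (10) at -0.21, of stem and progenitor cells (11) at 0.09, of the epithelium (8) at 0.12 and of smooth muscle (10) at -0.13. For B cells (7), T cells (4), macrophages (6), small intestine (14) and adipocytes (6) it was -0.28, -0.39, 0.02, -0.00 and -0.12. Beside these, the list of other mitosis genes stood at 0.97 and that of replication genes at 0.59. The lists of G1 regulators and of the DREAM, B-Myb and FoxM1 machinery stood at 0.41 and 0.40. All these values are for list means. Gene by gene, the median r in the mitosis, replication, G1 and DREAM lists was 0.75, 0.50, 0.28 and 0.21.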

How the data were processed

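Total RNA from 31 samples was hybridised to single-colour whole-transcript arrays, 1 array per sample. The values deposited are on a log2 scale and were made with RMA, per the submitters' processing notes; RMA corrects background, normalizes quantiles and summarises probes, and its version is not given in the sources used here. Values ran from 1.13 to 13.8, and signal over background, not depth, limits dim genes.

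Of 35556 probe sets 21218 had 1 gene symbol and 1881 several in the platform annotation used. The brightest single-symbol probe set stood for each of 18820 genes, and genes with an intensity of 20 on at least 3 arrays were tested. A model with 1 mean per group was fitted in limma 3.58.1 (R 4.3.3) with an intensity trend, and p-values were Benjamini-Hochberg adjusted over 12795 genes in each of 20 comparisons. Standard errors and intervals pool the spread of 8 groups. Data were simulated from these 12795 genes with independent noise, and 50 genes drawn from all of them were shifted by each size, up to 2. For acetate over saline on LFD the fit recovered 4% of shifts of 0.25, 64% of 0.5 and 98% of 1 on the log2 scale. For diet over all infusions it recovered 78%, 96% and 100%. Planting shifted genes eases the adjusted threshold, and the members varied within groups more than most genes (78.5th to 96.5th percentile of SD). These shares are therefore not the power for the members. Named are all members, and of each other list the passing genes with the smallest p, up to 6. No 2 arrays were identical. The members and lists were chosen with earlier results of these data known. RefSeq promoters were searched on both strands. Alternatives were other filters, moderation, weights, normalization, probe sets, the replicate number as a block and leaving out arrays.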

Additional observations from a re-analysis of the deposited data

Results flagged for a closer look

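In 70 sets of 1 gene in 1 group of 4 arrays, 3 held an array whose gap to its nearest neighbour exceeded Dixon's critical value, where chance gives about 3.5. Birc5 read 5.40 on propionate HFD 4, against 5.97 to 6.06 on the other 3 arrays, a gap of 0.8696 of the range. It read 5.48 on saline LFD 2, against 6.00 to 6.02 on the other 3, a gap of 0.957 of the range. Ccna2, cyclin A2, read 8.36 on butyrate HFD 2, against 8.04 to 8.07 on the other 3, a gap of 0.9073 of the range.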

How the results depend on the processing

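Member values in each comparison were recomputed over 42 alternatives, 31 of them leaving out 1 array. Of 8410 values, which include the 2 dim Top2a probe sets, 8398 stayed on the same side of the threshold within the spread between arrays. Of all values 0 reversed a call. For many of them the difference could not move, and only the p-value could. Leaving out an array of a group outside the comparison, or changing the filter or the moderation, leaves the difference unchanged. This share is therefore no measure of stability. The count of members that passed differed from 0 in HFD over LFD under propionate alone, where it was 1 (Bub1) with a stricter filter, which also drops Birc5 (adjusted p = 0.045), with array weights (0.0181) and with only the groups compared (0.0236). Leaving out 1 array, it ran from 0 to 1, with 1 without propionate HFD 1, butyrate HFD 2, acetate HFD 3, acetate LFD 3 or saline HFD 4. On butyrate HFD 2, acetate HFD 3, acetate LFD 3 and saline HFD 4, Bub1 lay 0.54, 0.51, 0.53 and 0.52 above its group mean. The cause was not tested. Counts over all genes moved more: for diet over all infusions 345, from 115 with saline HFD 1 and 2 left out to 1788 with array weights, and 127 to 1027 leaving out 1 array; for diet under propionate 879, from 601 to 2652, and 11 to 1731; for butyrate over propionate on HFD 8, from 2 to 937, and 0 to 585. Array weights gave 1202 for propionate over acetate on HFD, 213 for propionate over saline on HFD and 101 for the difference of the propionate response, where the counts were 0. The members' median kept its sign throughout for acetate over saline on LFD (-0.44 to -0.17) and diet under propionate (-0.34 to -0.20). It did not for diet under saline (-0.15 to 0.04) or butyrate over saline on LFD (-0.07 to 0.19). The median also changed sign for diet under butyrate, acetate and butyrate over saline on HFD, and propionate over saline on LFD. The same held for butyrate over propionate on LFD, butyrate over acetate on HFD and the difference of the butyrate response between the diets. Same-numbered arrays of different groups had a median r of 0.04, against -0.01 for other pairs. Of 31 arrays 12 correlated best with their own number, and whether the numbers pair the arrays was not tested. With the replicate block 0 members passed in any comparison, and 454 and 924 genes passed for diet over all infusions and under propionate. The block gave 64 for butyrate over propionate and 72 for propionate over acetate, both on HFD, and 11 for the difference of the propionate response. Omitting the arrays rich in small-intestinal or in smooth muscle transcripts was chosen after seeing the data. Dim genes near the filter carry little information at these signals.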
